A study of Mus musculus with 6 samples.

Results

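The Hox genes of the HoxA, HoxB, HoxC and HoxD clusters were read in bulk RNA-seq of cultures labelled as neonatal mouse cardiomyocytes. The siRNA of the treated group targeted the splicing factor gene Rbm22. Members were chosen by name, as protein-coding genes whose symbol is Hox, a cluster letter from a to d and a paralog number from 1 to 13. The 38 members described here are set against 18951 genes in the count table, and 36 of them had a row in it. Hoxb13 and Hoxd3 have no row, so they enter the sequence comparisons and none of the expression values. The cells were labelled cardiomyocytes from hearts of C57BL/6 mice at postnatal day 1, used when stained purity for cardiac troponin T was above 97.5%. They received siRNA against Rbm22 (si-Rbm22, n = 3 libraries) or a scrambled siRNA (si-Control, n = 3 libraries) and were kept in culture for 48 h. All 6 libraries thus shared strain, age, tissue label and transfection, and differed by label only in the siRNA. The labels call the replicates biological without saying whether each came from its own isolation of hearts. The p-values therefore reflect only how far these 6 libraries spread, which may be technical.

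Hox genes encode homeodomain transcription factors that give cells along the body axis their regional identity. They lie in clusters in which the order of genes follows the order of expression: low paralog numbers, at the 3′ end, are used in the hindbrain, pharyngeal arches and anterior trunk, and high numbers, at the 5′ end, in the posterior trunk, the limbs and the genital region. In the embryo, retinoic acid switches on 3′ genes in the progenitors of the outflow and inflow regions of the heart, and cells of mesenchymal origin often keep the Hox pattern of the place they came from.

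The libraries held 36860678 to 37344860 reads in si-Rbm22 and 34269042 to 35955301 in si-Control. Rbm22 had 533, 466 and 491 reads in si-Rbm22 and 798, 916 and 774 in si-Control. That was 13.5 ± 0.892 against 23.2 ± 1.79 CPM, the read count scaled to library depth (SD, n = 3 each). Rbm22 was lower in si-Rbm22 by 0.78 on the log2 scale (SE 0.097, edgeR adjusted p = 4.22e-06). The cell type label held in si-Rbm22 and not in si-Control. All 10 cardiomyocyte markers were higher in si-Rbm22, their summed level was 25279 to 39323 CPM in si-Rbm22 and 47.02 to 54.37 CPM in si-Control, and Nppa, Myl7, Pln, Mybpc3 and Myl3 had no read in si-Control. All 7 tested markers of skeletal muscle precursors were lower in si-Rbm22, with a summed level of 365 to 526 CPM against 1145 to 1217 CPM, and Myod1, Myf5 and Cdh15 had no read in si-Rbm22. The summed fibroblast level was 5698 to 5897 CPM in si-Rbm22 and 21415 to 23250 CPM in si-Control. Of the 10 fibroblast markers 3 were higher and 5 lower in si-Rbm22, and the defining marker of cardiac fibroblasts, Tcf21, had no read in si-Control. All 10 epicardial and mesothelial markers were higher in si-Rbm22 (2586 to 2835 against 99.1 to 103 CPM summed), as were all 10 endothelial (419 to 468 against 5.99 to 6.65 CPM) and all 9 tested macrophage markers (121 to 157 against 5.57 to 7.39 CPM). Smooth muscle and pericyte markers split 5 higher and 5 lower (2348 to 2870 against 3360 to 3392 CPM), Schwann and neural ones 4 higher and 1 lower (114 to 118 against 38.8 to 44.9 CPM), and erythroid ones 1 and 1 (0.846 to 1.28 against 0.552 to 0.992 CPM). Every direction given for Rbm22 or a Hox gene is therefore between libraries that differ in cell markers as well as in siRNA. The part of cell content in these values was not tested. In bulk RNA, fewer cells of a type and less RNA per cell cannot be told apart.

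The homeobox, the stretch that encodes the DNA-binding homeodomain, shows how alike the members are. All 38 genes held a homeobox of 180 bases within 1 exon (GENCODE M21, GRCm38). Homeoboxes with the same paralog number were 80.6% identical at the median over 40 pairs (67.2% to 93.9%), against 60.6% over the 663 other pairs (46.1% to 88.9%), and the longest identical run in any pair was 52 bases. Paralog group 10 is printed because it holds the most abundant Hox gene of si-Control, Hoxc10. Capitals mark bases 142 to 159, which encode the core of the helix that reads DNA. Within group 10 the identities were 80.6% (Hoxa10 and Hoxc10), 78.9% (Hoxa10 and Hoxd10) and 82.8% (Hoxc10 and Hoxd10).
Hoxa10 homeobox, chr6:52232554-52232733, minus strand: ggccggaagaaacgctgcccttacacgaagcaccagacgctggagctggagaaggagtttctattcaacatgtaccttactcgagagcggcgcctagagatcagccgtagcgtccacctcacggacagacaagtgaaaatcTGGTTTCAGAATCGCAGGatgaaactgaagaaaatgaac
Hoxc10 homeobox, chr15:102970848-102971027, plus strand: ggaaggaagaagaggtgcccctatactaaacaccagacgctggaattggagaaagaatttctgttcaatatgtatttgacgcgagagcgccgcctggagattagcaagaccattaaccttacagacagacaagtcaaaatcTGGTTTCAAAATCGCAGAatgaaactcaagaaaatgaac
Hoxd10 homeobox, chr2:74694141-74694320, plus strand: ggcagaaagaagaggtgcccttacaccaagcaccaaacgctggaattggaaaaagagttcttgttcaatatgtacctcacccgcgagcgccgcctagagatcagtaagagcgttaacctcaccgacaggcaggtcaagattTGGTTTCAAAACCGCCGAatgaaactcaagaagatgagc

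Among whole transcripts, stretches of 50 bases shared with another gene made up 0% of Hoxa5, Hoxa10, Hoxa13, Hoxc4, Hoxc6, Hoxc11, Hoxc12, Hoxc13 and Hoxd8. They made up 51.4% of Hoxb3 and 25.9% of Hoxb2, whose exons overlap an antisense gene, and 33.0% of Hoxa11, which also has an antisense partner. The strand setting of the counting is not given in the sources used here, so reads of these 3 genes and of their antisense partners cannot be told apart. The same limit holds for Hoxa3 (24.3% of stretches shared), Hoxa7 (18.7%), Hoxa4 (13.3%) and Hoxb5 (1.83%), which also overlap antisense genes. Hoxd4 (46.8%) overlaps an antisense gene too, and it also shares exon bases with Hoxd3, which lies on the same strand and has no row. Reads of that shared part could not be told apart by strand either. Of the Hoxa2 stretches, 12.7% occur in another annotated gene. Hoxc5 and Hoxc10 share an exon stretch (3.92% and 6.40% of their 50-base stretches), and reads falling there could belong to either.

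Promoters of 250 bases upstream of the start are shown for Hoxa2 and Hoxa10, which were lower in si-Rbm22, and Hoxb4, which was higher (RefSeq, GRCm38.p6). The RefSeq table held 24 windows for 22 Hox genes, most of them of HoxA and HoxD. HoxB was covered by Hoxb1, Hoxb4 and Hoxb8 alone, and HoxC by Hoxc4 alone. Capitals mark matches on either strand to TTTAT, the core bound by posterior Hox and Cdx factors, and to TGATNNAT, bound by Hox with Pbx partners.
Hoxa2 promoter, chr6:52164832-52165081, minus strand: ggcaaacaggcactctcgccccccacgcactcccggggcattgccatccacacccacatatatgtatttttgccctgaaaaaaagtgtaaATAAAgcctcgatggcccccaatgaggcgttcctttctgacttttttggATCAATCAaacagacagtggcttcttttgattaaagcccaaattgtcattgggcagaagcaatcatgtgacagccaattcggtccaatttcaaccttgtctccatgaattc
Hoxa10 promoter, chr6:52234940-52235189, minus strand: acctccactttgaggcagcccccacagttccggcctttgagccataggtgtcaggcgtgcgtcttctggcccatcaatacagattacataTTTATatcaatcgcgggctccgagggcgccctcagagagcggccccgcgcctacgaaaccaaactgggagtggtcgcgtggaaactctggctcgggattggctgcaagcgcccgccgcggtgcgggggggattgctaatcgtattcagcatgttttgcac
Hoxb4 promoter, chr11:96318017-96318266, plus strand: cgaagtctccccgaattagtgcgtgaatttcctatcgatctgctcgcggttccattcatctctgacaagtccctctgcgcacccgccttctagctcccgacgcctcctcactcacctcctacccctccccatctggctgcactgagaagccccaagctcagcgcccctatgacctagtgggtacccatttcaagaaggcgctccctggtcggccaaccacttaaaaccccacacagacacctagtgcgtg
In the Hoxa2 window the first motif, as its reverse complement, began 160 bases before the start and the second 111 bases before it. Hoxa10 has 2 windows in the table, of which the one nearer its 3′ end is printed. It held TTTAT at 160 bases, where it overlaps a match to the TATA box sequence TATAAA on the other strand, whereas the other window held TTTAT at 242 bases and no TATAAA. The Hoxb4 window held none of the 3 motifs. Over all Hox windows, TGATNNAT was present in 16.7% (4 windows), against 7.68% of 32851 promoters of the same length. TTTAT was present in 37.5% against 37.3%, and TATAAA in 16.7% against 12.4%. The GC box GGGCGG was present in 41.7% against 32.7%, and CCAAT in 58.3% against 33.8%. The Hox shares rest on few windows, say little of HoxB and HoxC, and were not tested.

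The few Hox reads of si-Rbm22 came mainly from Hoxb2, Hoxb3 and Hoxb4, whereas HoxA and HoxC genes made up nearly all of the far more numerous Hox reads of si-Control. Hox genes took 477, 355 and 443 reads in si-Rbm22 and 14053, 13997 and 13099 reads in si-Control. Their summed level was 11.6 ± 1.59 CPM in si-Rbm22 and 384 ± 5.49 CPM in si-Control (SD, n = 3 each). HoxA summed to 1.43 CPM in si-Rbm22 and 181 CPM in si-Control, and HoxC to 1.11 CPM in si-Rbm22 and 202 CPM in si-Control. HoxB ran the other way, at 8.40 CPM in si-Rbm22 and 0.419 CPM in si-Control, and HoxD was scarce in both, at 0.622 CPM in si-Rbm22 and 0.381 CPM in si-Control. Of the 36 genes in the table, 21 had any read in si-Rbm22 and 31 in si-Control, and 4 against 18 had a mean of at least 1 CPM. The 4 genes above that level in si-Rbm22 were Hoxb2, Hoxb3, Hoxb4 and Hoxc13.

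Expression was compared over all genes with edgeR's quasi-likelihood test and Benjamini-Hochberg adjustment, after the tool's filter on low counts. The filter kept 22 Hox genes, left 14 untested, and a gene that passed it through 1 group alone had to differ, so the counts below are descriptions. At an adjusted p under 0.05, 3 Hox genes were higher in si-Rbm22 (Hoxb2, Hoxb3 and Hoxb4) and 19 were lower (10 of HoxA and 9 of HoxC). Over all 14621 genes tested, 43.1% were higher and 38.9% lower, and 82% were called in either direction. The groups' counts did not overlap for any of the 22 Hox genes, as for 83.4% of all genes tested. The median log2 fold change was -9.87 over the 22 Hox genes, or -7.16 with genes of 0 reads set at the bound that a floor of 3 reads per group allows, against 0.05 over all genes.

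**Figure D1:**
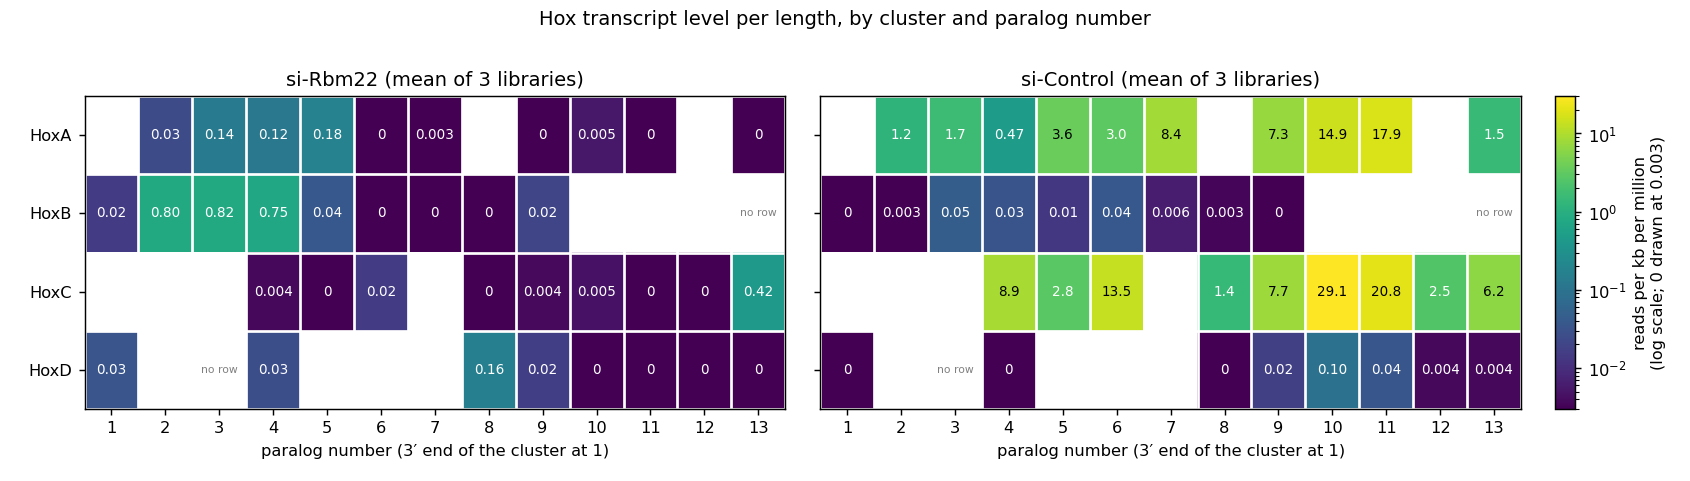
Mean level of each Hox gene per exon length (RPKM, log colour scale) by cluster, rows, and paralog number, columns, for si-Rbm22 on the left and si-Control on the right; white positions hold no gene analysed here. In si-Rbm22 the brightest tiles are Hoxb2, Hoxb3 and Hoxb4 at 0.747 to 0.819 RPKM, and in si-Control the HoxA and HoxC rows are bright up to 29.1 RPKM at Hoxc10 while HoxB and HoxD stay dark.

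Of the 3′ HoxA genes, Hoxa3, Hoxa4 and Hoxa5 were read at a low level in every si-Rbm22 library, and Hoxa2 was nearly unread there. Hoxa3, which is needed for thymus and parathyroid development, had 31, 32 and 29 reads in si-Rbm22 and 385, 337 and 348 in si-Control. All si-Control libraries lay far above all si-Rbm22 libraries, which agreed closely with each other, and the log2 fold change was -3.57 (SE 0.19, edgeR adjusted p = 4.09e-10). Hoxa5, known for its roles in lung and neck vertebrae, had 25, 4 and 8 reads in si-Rbm22 and 259, 264 and 207 in si-Control. Its log2 fold change was -4.33 (SE 0.41, edgeR adjusted p = 6.99e-07), and si-Rbm22 replicate 1 held most of the si-Rbm22 reads; without it the change was -5.36. Hoxa4, a cervical patterning gene, showed the smallest change of the tested HoxA genes, with 6, 1 and 14 reads in si-Rbm22 and 28, 26 and 26 in si-Control. The si-Rbm22 libraries spread widely but stayed below si-Control, and the log2 fold change was -1.96 (SE 0.59, edgeR adjusted p = 0.00688), or -2.92 without si-Rbm22 replicate 3. Hoxa2, the selector gene of the second pharyngeal arch, had 0, 2 and 3 reads in si-Rbm22 and 63, 78 and 84 in si-Control, with a log2 fold change of -5.43 (SE 0.57, edgeR adjusted p = 6.87e-07), or -6.09 without si-Rbm22 replicate 3.

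From Hoxa6 to Hoxa13 the HoxA genes had at most 2 reads in any si-Rbm22 library. Hoxa9, a partner of Meis1 in blood progenitors, had no read in any si-Rbm22 library and 1413, 1509 and 1445 in si-Control. That makes it at least 1496-fold lower in si-Rbm22, taking the floor of 3 reads over the group. Hoxa10, which patterns the lumbar spine and the uterus, had 0, 0 and 2 reads in si-Rbm22 and 1787, 1698 and 1739 in si-Control, a ratio of 0.000373 (95% exact counting interval 0.000045 to 0.00135). Hoxa11, known for the forearm and lower leg, had no read in si-Rbm22 and 1516, 1471 and 1413 in si-Control, so it was at least 1507-fold lower. The si-Control libraries lay close together for these genes, and si-Rbm22 never exceeded 2 reads. Hoxa7, a thoracic gene, had 0, 0 and 1 reads in si-Rbm22 and 883, 860 and 848 in si-Control (ratio 0.000376, interval 0.00001 to 0.0021). Hoxa6 had no read in si-Rbm22 and 90, 99 and 89 in si-Control and was at least 95.2-fold lower. Hoxa13, which patterns digits and the genital tract, had no read in si-Rbm22 and 132, 143 and 122 in si-Control and was at least 136-fold lower.

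HoxC was the most abundant cluster of si-Control, and only Hoxc13, its gene of highest number, was clearly read in si-Rbm22. Hoxc10, a gene of the hindlimb and lumbar region, had 1, 0 and 0 reads in si-Rbm22 and 1996, 2056 and 1912 in si-Control (ratio 0.000163, interval 0.000004 to 0.00091). Hoxc11, likewise a hindlimb gene, had no read in si-Rbm22 and 1550, 1562 and 1397 in si-Control, at least 1543-fold lower. Hoxc6, a gene of the forelimb level and thorax, had 3, 1 and 0 reads in si-Rbm22 and 1250, 1228 and 1022 in si-Control, with a log2 fold change of -9.68 (SE 0.26, edgeR adjusted p = 2.69e-13), or -10.91 without si-Rbm22 replicate 1. The si-Control libraries again formed a tight group and the si-Rbm22 libraries held at most 3 reads of any of these genes. Hoxc4 had 0, 1 and 0 reads in si-Rbm22 and 831, 828 and 784 in si-Control (ratio 0.000398, interval 0.00001 to 0.00222). Hoxc9, which sets thoracic motor neuron identity, had 0, 1 and 0 reads in si-Rbm22 and 687, 672 and 647 in si-Control (ratio 0.000485, interval 0.000012 to 0.00271). Hoxc5, Hoxc8 and Hoxc12 had no read in si-Rbm22. In si-Control, Hoxc5 had 303, 333 and 292 reads, Hoxc8, a gene of forelimb-level motor neurons, had 142, 172 and 125, and Hoxc12 had 74, 97 and 103. The bounds on their decrease in si-Rbm22 were 318-fold for Hoxc5, 150-fold for Hoxc8 and 94.0-fold for Hoxc12.

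Hoxc13, the regulator of hair and nail keratins, broke the pattern of its neighbours. It had 30, 46 and 39 reads in si-Rbm22 and 639, 528 and 471 in si-Control, or 1.05 ± 0.229 against 15.3 ± 2.12 CPM (SD, n = 3 each). The log2 fold change was -3.86 (SE 0.19, edgeR adjusted p = 1.83e-10). It held 115 of the 122 HoxC reads of si-Rbm22 while the adjacent Hoxc12 and Hoxc11 had none, and none of its 50-base stretches occurred in another annotated gene.

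Within HoxB, Hoxb2, Hoxb3 and Hoxb4 were higher in si-Rbm22 and the rest of the cluster was almost unread in both groups. Hoxb2, which acts in the hindbrain, had 125, 84 and 100 reads in si-Rbm22 and 1, 0 and 0 in si-Control, or 2.80 ± 0.553 CPM in si-Rbm22 and 0.0092 CPM in si-Control. The ratio was 301 (95% exact counting interval 53.6 to 11918) and the edgeR adjusted p was 4.76e-08. Hoxb3 had 159, 120 and 104 reads in si-Rbm22 and 6, 9 and 6 in si-Control, with a log2 fold change of 4.13 (SE 0.37, edgeR adjusted p = 1.44e-07). Hoxb4, known for expanding blood stem cells, had 71, 51 and 90 reads in si-Rbm22 and 3, 2 and 4 in si-Control, with a log2 fold change of 4.46 (SE 0.49, edgeR adjusted p = 1.03e-06). Every si-Rbm22 library lay above every si-Control library for the 3 genes, and si-Rbm22 replicate 1 was highest for Hoxb2 and Hoxb3 but not for Hoxb4. Hoxb1, which marks heart progenitors early in development, had 0, 0 and 4 reads in si-Rbm22 and none in si-Control. Hoxb5 to Hoxb9 had 0 to 8 reads per library in si-Rbm22 and 0 to 5 in si-Control, and none of these 6 genes entered the test.

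No HoxD gene entered the test. Hoxd8 had 20, 5 and 24 reads in si-Rbm22 and none in si-Control, which puts it at 15.8-fold or more above si-Control, with si-Rbm22 replicate 2 the lowest. It was untested because of the filter alone, and without that filter its edgeR adjusted p was 0.000133. Hoxd1 and Hoxd4 were read in 2 si-Rbm22 libraries each, at 8 reads or fewer, and in no si-Control library. The 5′ genes Hoxd10, Hoxd11, Hoxd12 and Hoxd13, which shape digits and limb bones, had no read in si-Rbm22. In si-Control, Hoxd10 had 5, 10 and 4 reads and Hoxd11 had 1, 8 and 7. Without the filter both were lower in si-Rbm22, at an edgeR adjusted p of 0.00458 for Hoxd10 and 0.00912 for Hoxd11. Hoxd12 and Hoxd13 had 1, 0 and 0 reads each in si-Control, too few to give a direction. Hoxd9 had 0, 0 and 4 reads in si-Rbm22 and 0, 4 and 0 in si-Control, so the groups overlapped.

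**Figure D2:**
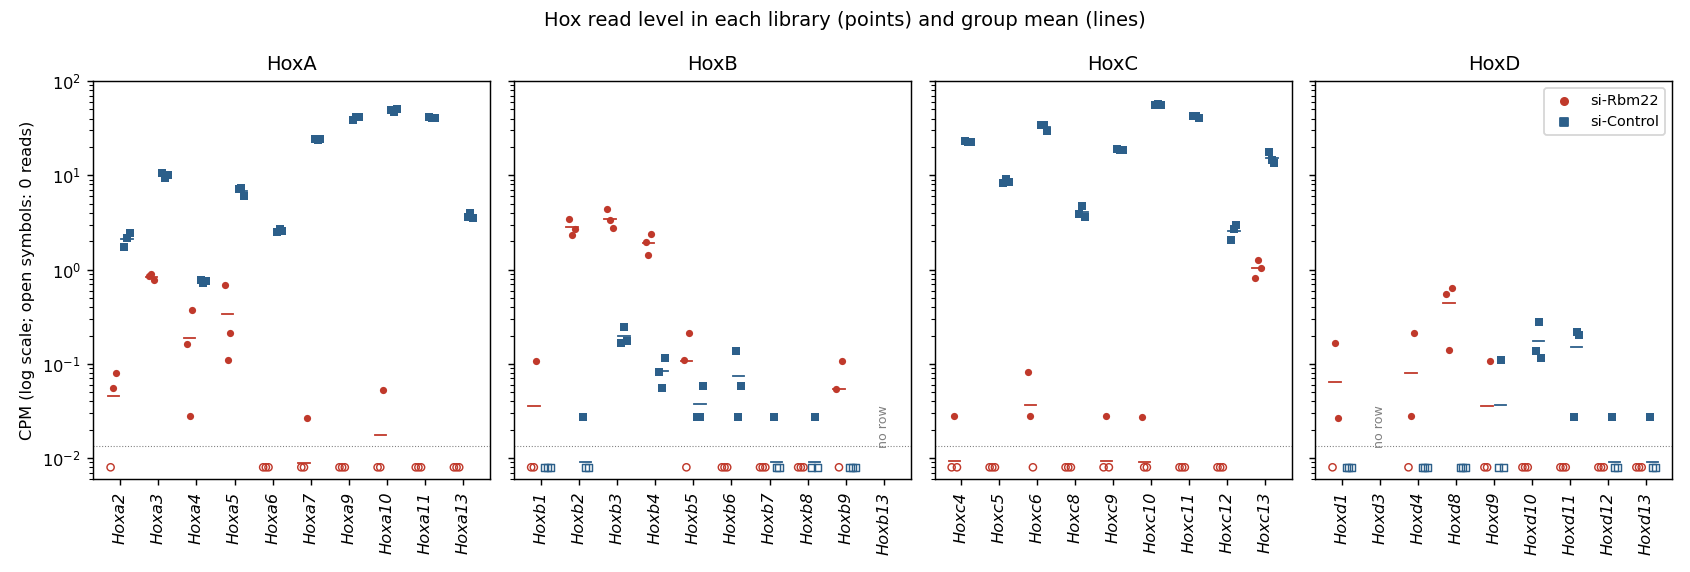
CPM of each Hox gene (log scale) in every library, with si-Rbm22 as red circles left of si-Control as blue squares; short lines are group means and open symbols are libraries with 0 reads, drawn below the dotted line. The 2 groups are separated for all tested genes of HoxA, HoxB and HoxC, with si-Rbm22 on top at Hoxb2, Hoxb3 and Hoxb4.

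Levels per length, as scaled reads per exon length and sequencing depth (RPKM), showed how the Hox transcripts were made up. In si-Rbm22, paralogs 1 to 4 made up 76.0 ± 1.75% of the summed Hox level, paralogs 5 to 8 made up 10.4 ± 5.94% and paralogs 9 to 13 made up 13.6 ± 4.35% (SD, n = 3). That last share was mostly Hoxc13, which held 1.05 of the 1.17 CPM that paralogs 9 to 13 summed to in si-Rbm22. In si-Control the weight lay at the 5′ end, with 8.01 ± 0.204% in paralogs 1 to 4, 21.4 ± 0.758% in paralogs 5 to 8 and 70.6 ± 0.555% in paralogs 9 to 13 (SD, n = 3). The share of paralogs 9 to 13 was 9.20%, 17.9% and 13.8% in the si-Rbm22 libraries and 70.4%, 70.2% and 71.2% in the si-Control libraries, so the groups did not overlap. The paralog number weighted by level averaged 4.64 ± 0.263 in si-Rbm22 and 9.01 ± 0.016 in si-Control. By cluster, HoxB made up 67.8 ± 2.54% of the Hox level of si-Rbm22 and 0.0929 ± 0.0204% of that of si-Control. HoxC made up 13.05 ± 4.91% in si-Rbm22 and 60.7 ± 0.754% in si-Control, and HoxA 12.7 ± 3.53% in si-Rbm22 and 39.1 ± 0.786% in si-Control. The summed level behind these shares was 3.61 RPKM in si-Rbm22 and 153 RPKM in si-Control, so the si-Rbm22 shares rest on far fewer reads.

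**Figure D3:**
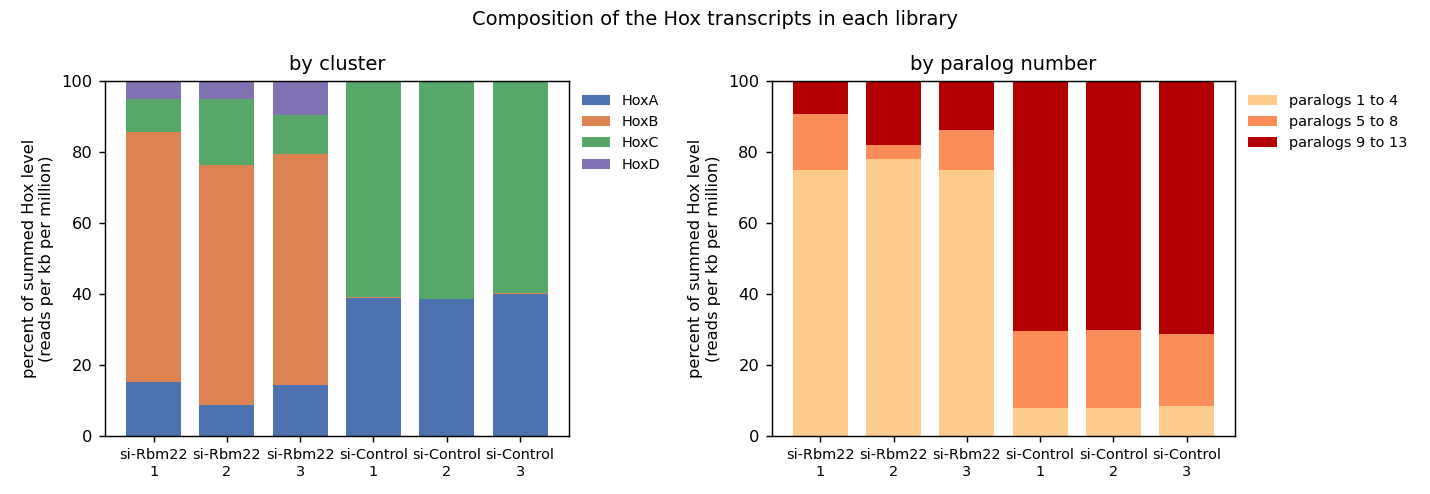
Percent of the summed Hox level (RPKM) in each library by cluster (left) and by paralog number (right), si-Rbm22 libraries left of si-Control libraries. HoxB fills 65.3% to 70.3% of the si-Rbm22 bars, and paralogs 9 to 13 fill 70.2% to 71.2% of the si-Control bars.

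In si-Rbm22 the order of levels was short. Hoxb3, Hoxb2 and Hoxb4 stood at 0.819, 0.804 and 0.747 RPKM, their library values overlapped, and all libraries of Hoxb4 lay above those of Hoxc13 at 0.425 RPKM. Hoxa5, Hoxd8, Hoxa3 and Hoxa4 followed at 0.179, 0.161, 0.139 and 0.118 RPKM with overlapping libraries. In si-Control the highest level was that of Hoxc10 at 29.1 RPKM, followed by Hoxc11 at 20.8, Hoxa11 at 17.9 and Hoxa10 at 14.9 RPKM. The first 3 of these were each separated from the next gene in every library, whereas Hoxa10 overlapped Hoxc6 at 13.5 RPKM. Hoxc4 (8.87 RPKM), Hoxa7 (8.40), Hoxc9 (7.70) and Hoxa9 (7.30) came next in separate steps, and Hoxa9 overlapped Hoxc13 at 6.20 RPKM. Hoxa5 (3.62 RPKM), Hoxa6 (2.97), Hoxc5 (2.80) and Hoxc12 (2.48) followed, with overlap between the last 3. Hoxa3, Hoxa13, Hoxc8 and Hoxa2 lay between 1.18 and 1.66 RPKM with overlapping neighbours. Hoxa4 stood at 0.468 RPKM, and every HoxB and HoxD gene lay at or below the 0.0971 RPKM of Hoxd10. Level thus did not run evenly along a cluster: in si-Control, HoxA was highest at Hoxa11 and dropped to 1.497 RPKM at Hoxa13, and HoxC had minima at Hoxc5, Hoxc8 and Hoxc12. When only exon bases shared with no other gene were counted as length, Hoxa11 moved above Hoxc11 and Hoxa7 above Hoxc4 in si-Control. In si-Rbm22 the same change put Hoxb3 at 1.74 RPKM and Hoxb2 at 1.11 RPKM, above the 0.747 RPKM of Hoxb4, and moved Hoxa3 (0.191 RPKM) above Hoxa5 and Hoxd8.

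Genes of paralog groups 2 to 4 differed in direction between clusters. In group 4, Hoxb4 was higher in si-Rbm22 while Hoxa4 and Hoxc4 were lower. In group 2, Hoxb2 was higher (ratio 301) and Hoxa2 lower (log2 fold change -5.43), and in group 3 the log2 fold changes of Hoxb3 and Hoxa3 were 4.13 and -3.57. The summed CPM of group 2 was 2.85 in si-Rbm22 and 2.11 in si-Control, although the gene behind it was Hoxb2 in si-Rbm22 and Hoxa2 in si-Control. Group 10 summed to 0.0269 CPM in si-Rbm22 and 105 CPM in si-Control, and group 11 to 0 reads in si-Rbm22 and 83.2 CPM in si-Control.

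Between the outermost Hox genes of the clusters the annotation holds 41 other genes, of which 4 had a row and 1 was tested. That gene was Hotair, a long non-coding RNA transcribed from the HoxC cluster between Hoxc11 and Hoxc12 on the opposite strand (chr15:102944062-102947730, GRCm38), named here after its values were seen. Hotair had no read in si-Rbm22 and 218, 279 and 296 reads in si-Control (7.41 ± 1.28 CPM), at least 272-fold lower in si-Rbm22, in the same direction as the HoxC genes around it. Many of the other annotated genes within the clusters are microRNAs or miscellaneous RNAs, types without any row among the matched genes. Their missing rows therefore do not show a lack of expression. Outside the clusters, 50 protein-coding genes lay within 500 kb of the outermost Hox genes, 44 had a row and 38 were tested. Of these, 12 were higher and 20 lower in si-Rbm22, or 84.2% called against 82% of all genes tested, with a median log2 fold change of -0.35. Next to HoxA, Skap2, an immune adaptor gene, averaged 21.4 CPM in si-Rbm22 and 106 CPM in si-Control (log2 fold change -2.31), whereas Hibadh, a valine-degrading enzyme gene, averaged 67.3 CPM in si-Rbm22 and 57.1 CPM in si-Control (0.24). Beside HoxB, Igf2bp1, which encodes a fetal RNA-binding protein, averaged 75.2 CPM in si-Rbm22 and 0.0188 CPM in si-Control, and Copz2, a coat protein gene, 25.9 CPM in si-Rbm22 and 148 CPM in si-Control. All 16 flanking HoxC genes past the test split 5 higher and 11 lower, from -1.29 for Itga5, a fibronectin receptor subunit, to 0.38 for Prr13 among those with a mean of at least 5 CPM. Beside HoxD, Mtx2, a mitochondrial import gene, and Lnpk, an endoplasmic reticulum shaping gene, were both higher in si-Rbm22, by 0.96 and 0.43 on the log2 scale.

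Partners and regulators of Hox proteins were read from lists of known genes. TALE homeodomain proteins (Pbx, Meis and Pknox) bind DNA together with Hox proteins, and of 9 tested genes 2 were higher and 5 lower in si-Rbm22 (77.8% called, against 82% of all genes tested), with a median log2 fold change of -0.30. Meis2 averaged 103 ± 9.26 CPM in si-Rbm22 and 24.0 ± 0.789 CPM in si-Control (log2 fold change 2.10), and Pbx2 24.5 ± 1.33 CPM in si-Rbm22 and 60.6 ± 1.53 CPM in si-Control (-1.31). Pknox1 (-0.77) and Meis3 (-0.90) were lower in si-Rbm22. Of 31 Polycomb genes, which keep Hox clusters silent, 9 were higher and 17 lower (83.9% called, against 82% of all genes; median -0.27). Ezh1, a histone methyltransferase, averaged 36.9 CPM in si-Rbm22 and 95.2 CPM in si-Control (-1.37), its accessory factor Phf1 (-1.27) and the ubiquitin ligase Ring1 (-1.13) were lower too, and Pcgf5 was higher (1.58). Of 18 Trithorax-type genes, which keep Hox clusters active, 6 were higher and 6 lower (66.7% called, against 82% of all genes; median 0.04). Men1, the scaffold menin, averaged 52.9 CPM in si-Rbm22 and 89.2 CPM in si-Control (-0.76), Dpy30 (-0.74) and the demethylase gene Kdm6b (-0.60) were also lower, and the methyltransferase gene Dot1l was higher (0.88). No member of these 3 lists was without reads in either group.

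Regulators that set Hox transcription in the embryo moved in both directions. Of 16 listed, 11 were tested, of which 5 were higher and 6 lower in si-Rbm22 (median -0.70). All 11 were thus called, against 82% of all genes tested. Aldh1a2, the main enzyme of retinoic acid synthesis in the embryo and also one of the epicardial markers above, averaged 97.3 ± 3.29 CPM in si-Rbm22 and had no read in si-Control. Rarg, a retinoic acid receptor, averaged 28.2 CPM in si-Rbm22 and 208 CPM in si-Control (log2 fold change -2.88). Egr2, which activates Hoxa2 and Hoxb2 in the hindbrain, averaged 1.64 CPM in si-Rbm22 and 24.7 CPM in si-Control (-3.91). Gdf11, a secreted factor that drives posterior Hox genes in the trunk, averaged 12.4 CPM in si-Rbm22 and 57.3 CPM in si-Control (-2.20). The Cdx genes, activators of central and posterior Hox genes, were not tested for Cdx1 and Cdx2, which had no read in si-Rbm22, and Cdx4 has no row. Of 13 limb transcription factors outside the clusters, 11 were tested, 3 were higher and 6 lower in si-Rbm22 (81.8% called, against 82% of all genes; median -2.49). Prrx1 and Prrx2, markers of limb mesenchyme, averaged 28.3 and 2.21 CPM in si-Rbm22 and 382 and 130 CPM in si-Control. Tbx5, a factor of both the heart and the forelimb, averaged 55.4 ± 5.67 CPM in si-Rbm22 and 0.186 ± 0.0298 CPM in si-Control (log2 fold change 8.19), and Twist1 13.7 ± 1.86 CPM in si-Rbm22 against no read in si-Control.

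**Figure D4:**
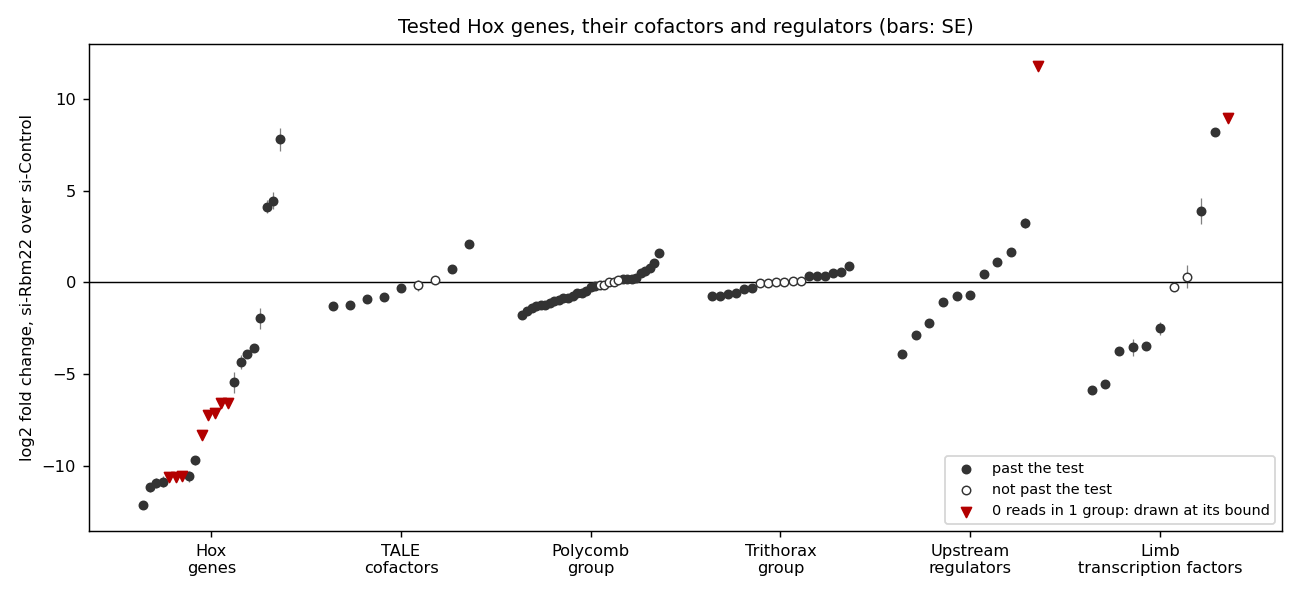
Log2 fold change of si-Rbm22 over si-Control (vertical axis, with SE) for the 22 tested Hox genes and for tested genes of 5 lists; filled points passed the test, open points did not, and triangles are genes with 0 reads in 1 group, drawn at their bound. Fitted values of Hox genes reach from -12.12 (Hoxc10, 1 read in si-Rbm22) to 7.78 (Hoxb2, 1 read in si-Control), whereas the TALE, Polycomb and Trithorax genes lie between -1.79 (Cbx7) and 2.10 (Meis2). The upstream regulators and limb transcription factors reach beyond that narrower range, below it at Egr2 and above it at Tbx5. Their members Aldh1a2 and Twist1 had no read in si-Control.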

How the data were processed

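Raw counts per gene were deposited by the authors as a single table of 6 libraries; per the submitters' processing notes, fastp, HISAT2, HTSeq, DESeq2 and the GRCm38 build were used, and no version, annotation release or strand setting is stated for them. Gene IDs were matched to GENCODE M21, and 18856 rows matched while 95 did not. The titles of the samples gave group and replicate number. The members and lists were chosen with earlier results of these data known, and 1 gene of the rule is not reported here. All Hox genes were named; of each list, the up to 4 tested genes with the smallest p, and flanking genes averaging 5 CPM or more, could be named.

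The count test was edgeR 4.0.16 (R 4.3.3; TMM scaling, its default filter, robust quasi-likelihood fit, Benjamini-Hochberg adjustment over 14621 genes, threshold 0.05), without a replicate block. It was also run on simulated data in which few genes changed, by moderate folds. Here 82% of the genes tested were called, so that run does not give the error rate in these data. SE is the log2 fold change divided by the root of the F statistic. CPM and RPKM use TMM-scaled library sizes and the length of all annotated exons. Genes with 0 reads in a group of 3 libraries were set at a floor of 3 reads over the group (0.0272 CPM in si-Rbm22, 0.0280 CPM in si-Control). Without molecular identifiers, floors and intervals describe counting error alone. Replicates differed beyond sampling noise (chi-square per degree of freedom 10.5 to 30.9 in si-Rbm22 and 4.52 to 7.05 in si-Control), so none was counted as a duplicate. Alternatives were RLE scaling, other filters, DESeq2 1.42.0, limma-voom (limma 3.58.1), a replicate block, a stricter threshold, other lengths and leaving out each library.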

Additional observations from a re-analysis of the deposited data

How the results depend on the processing

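All 22 tested Hox genes kept their direction and their side of the threshold under every alternative that tested them (274 values). A gene that passed the filter through 1 group alone had to differ, so these values add no support for its call. Those at the stricter threshold come from the main fit itself. A minimum of 10 CPM in 3 libraries left 0 Hox genes higher and 10 lower in si-Rbm22, because Hoxb2, Hoxb3, Hoxb4 and 9 lower genes were no longer tested. DESeq2 called 4 higher and 21 lower, and edgeR without a filter 4 higher and 22 lower, the additions being Hoxd8, Hoxd10, Hoxd11 and, in edgeR, Hoxb6. Leaving out each library gave 3 to 4 higher and 19 lower, the added gene being Hoxd8. It moved the fold of Hoxa2, Hoxa4, Hoxa5 and Hoxc6 by over 1.5 times, and of genes with 1 to 3 reads in a group when those reads were left out. The share of paralogs 9 to 13 in si-Control was 71.4% with only unshared exon bases as length, against 70.6%, and in si-Rbm22 it was 9.94% with them and 10.4% without length scaling, against 13.6%. With the replicate block, 3 Hox genes were higher and 19 lower, 6264 and 5681 genes were called in all, and Rbm22 stood at -0.78. Same-numbered libraries did not deviate together (r = -0.0164, 0.00689 and 0.00841 across genes), so the numbers gave no sign of pairing. Between groups that differ in cell markers, these values cannot exclude it. Depth limits the si-Rbm22 values: 12 to 17 Hox genes had any read in a library, and a gene with no read there may lie anywhere under the floor.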

Other observations

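The 3 si-Rbm22 libraries did not hold the same low-level Hox genes. Paralogs 5 to 8 made up 15.9%, 4.09% and 11.2% of the summed Hox level of si-Rbm22 replicates 1, 2 and 3. Replicate 2 had the fewest reads of Hoxa4 (1), Hoxa5 (4), Hoxb4 (51), Hoxb5 (0) and Hoxd8 (5), and the most of Hoxc13 (46) and Hoxd1 (6). Replicate 3 held every Hoxb1 and Hoxd9 read of si-Rbm22, 4 each, and 8 of the 9 Hoxd4 reads. Hox genes with any read numbered 12, 14 and 17 in si-Rbm22 replicates 1, 2 and 3. With groups of 3 these differences were not tested.

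Within the clusters, the lncRNA Gm53 of HoxB had 1, 0 and 1 reads in si-Rbm22 and 4, 0 and 0 in si-Control, and 5730596B20Rik, which shares exon bases with Hoxa3, had 2, 0 and 0 reads in si-Rbm22 and 7, 1 and 11 in si-Control. These 2 genes were not tested.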
